A study of Mus musculus with 20 samples.

Results

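The retina sorts its interneurons into the inner nuclear layer, and a small set of transcription factors is used across the field to tell those cells apart. This account follows 9 of them, Pax6, Tfap2a, Tfap2b, Meis2, Prox1, Lhx1, Onecut1, Onecut2 and Vsx1, across the layers of the adult mouse retina. A probe set was taken as a member when the array annotation gave it exactly 1 gene symbol and that symbol was on this list. The rule found 9 probe sets, 1 for each gene, of 21789 probe sets with 1 symbol that cover 19938 genes. All 9 genes were among the 15057 genes tested. The rule used gene names and no measured value.

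RNA came from adult C57BL/6 mice 7 to 8 weeks old, with no transgene or mutation named, and was measured on 20 Affymetrix gene arrays. Tissue of the inner nuclear layer, of the photoreceptor layer (outer nuclear layer with outer and inner segments) and of the inner plexiform layer and ganglion cell layer was cut out by laser capture microdissection, and intact retina, called the whole retina here, was run as well. Each of these 5 tissues has 2 arrays from mice kept dark adapted for 3 h, in a chamber with at most 0.4 lux, and 2 arrays from mice light adapted for 6 h at 450 lux. The labels do not tie an array to an animal or say how many animals were pooled, so p-values measure the spread between the deposited samples, which may be technical. A cut layer holds pieces of every cell that crosses it, and in such bulk samples fewer cells of a type and less RNA per cell cannot be told apart.

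Bipolar, horizontal and amacrine cells have their bodies in the inner nuclear layer, together with those of Müller glia. In the inner plexiform layer these interneurons meet the dendrites of ganglion cells at synapses. Displaced amacrine cells lie among the ganglion cells. Pax6 is a paired-domain and homeodomain factor that progenitors need and that adult amacrine and ganglion cells keep. Tfap2a and Tfap2b encode the AP-2 alpha and AP-2 beta proteins of amacrine and horizontal cells, and Meis2 is a homeodomain factor of a subset of amacrine cells that release GABA. Prox1, Lhx1, Onecut1 and Onecut2 are homeodomain factors of the horizontal cell programme. Prox1 also stays on in some amacrine and bipolar cells, and the Onecut pair is also used by ganglion cells. Vsx1 is a homeodomain factor of subsets of cone bipolar cells.

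Intensities below are the deposited values on a linear scale, and differences are in log2 units, each ± its standard error from the fit. A gene is called when its adjusted p in limma, over all genes tested, is under 0.05. Median intensities of the arrays were 37.5 to 40.8, and replicates of a group correlated across genes at 0.857 to 0.957. Of the cell type markers tested, 11 of 11 photoreceptor genes were higher in the photoreceptor layer, 10 of 10 ganglion cell genes in the ganglion cell layer, and 5 of 9 bipolar cell and 2 of 10 Müller glia genes in the inner nuclear layer, each against the other 3 layers. None of the 10 amacrine cell genes and none of the 6 horizontal cell genes, of which Lhx1, Onecut1 and Onecut2 are also members, was called in the inner nuclear layer. Both light-adapted inner plexiform layer arrays correlated less with the other groups than the rest of the dissected arrays, and 5 light-adapted arrays carried Y-linked signal. Those 5 were replicate 1 of the photoreceptor layer, of the inner nuclear layer and of the whole retina, and both ganglion cell layer arrays. Both sets of arrays are left out in turn where a result rests on them.

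Promoter windows of 4 members are shown because these are the genes whose levels differed most between tissues. Each runs from 250 bases before to 50 bases after an annotated start, is read on the gene's own strand, and is taken from RefSeq on build GRCm38.p6. Capitals mark matches, on either strand, to any of 6 motifs that were searched: the AP-2 palindrome GCCNNNGGC, the CCAAT box CCAAT, the TATA box TATAAA, the GC box GGGCGG, the homeodomain core TAATTA and the Onecut core ATTGAT. The windows are Pax6 at chr2:105668646-105668945 on the plus strand, Tfap2a at chr13:40734871-40735170 on the minus strand, Tfap2b at chr1:19211804-19212103 on the plus strand, and Prox1 at chr1:190170778-190171077 on the minus strand.
Pax6: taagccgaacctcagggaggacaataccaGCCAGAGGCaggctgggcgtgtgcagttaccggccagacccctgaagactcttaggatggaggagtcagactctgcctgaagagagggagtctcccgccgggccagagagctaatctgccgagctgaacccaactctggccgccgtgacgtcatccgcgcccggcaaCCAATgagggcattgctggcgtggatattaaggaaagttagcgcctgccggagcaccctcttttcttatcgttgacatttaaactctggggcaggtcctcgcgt
Tfap2a: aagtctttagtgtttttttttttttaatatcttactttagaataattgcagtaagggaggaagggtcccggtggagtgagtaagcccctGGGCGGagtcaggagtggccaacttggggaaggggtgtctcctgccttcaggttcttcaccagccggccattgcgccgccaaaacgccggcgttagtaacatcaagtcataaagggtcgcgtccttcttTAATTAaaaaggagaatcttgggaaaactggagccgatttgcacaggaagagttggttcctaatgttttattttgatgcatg
Tfap2b: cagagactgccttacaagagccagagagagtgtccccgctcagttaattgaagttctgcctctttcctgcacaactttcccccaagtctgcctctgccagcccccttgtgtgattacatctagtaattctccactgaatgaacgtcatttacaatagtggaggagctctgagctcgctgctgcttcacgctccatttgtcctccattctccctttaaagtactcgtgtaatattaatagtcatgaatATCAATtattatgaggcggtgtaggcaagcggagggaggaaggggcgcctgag
Prox1: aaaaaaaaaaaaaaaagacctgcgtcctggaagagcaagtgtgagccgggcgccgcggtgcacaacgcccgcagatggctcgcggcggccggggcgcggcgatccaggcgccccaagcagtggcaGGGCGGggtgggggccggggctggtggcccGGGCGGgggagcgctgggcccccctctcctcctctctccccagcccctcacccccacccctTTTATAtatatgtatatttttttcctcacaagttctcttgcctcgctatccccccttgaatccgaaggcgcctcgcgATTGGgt

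The Pax6 window held 1 match to the AP-2 palindrome, at bases 30 to 38 counted from its 5′ end, and a CCAAT box at bases 197 to 201. The palindrome matched in 16.6% and the CCAAT box in 37.4% of all 32851 windows of this length. The Tfap2a window held the homeodomain core at bases 219 to 224, which 5.3% of windows have, and a GC box, which 35.7% have. In the Tfap2b window the Onecut core matched once, at bases 248 to 253, across the annotated start, and 7.5% of windows hold it. The Prox1 window held a TATA box (13.6% of windows), a CCAAT box and 2 GC boxes. These matches describe letters, not bound sites. Of the 11 windows listed for 8 of the members, the 64.3% GC of this Prox1 window and the 46.3% of this Tfap2a window compare with a median of 52.7% over all windows. Pax6, Tfap2a and Prox1 each have a second window, and only the one listed first is shown. The second windows had 46.3% GC for Pax6, 61.0% for Tfap2a and 57.3% for Prox1. That of Pax6 held no match, and those of Tfap2a and Prox1 held 1 GC box each and no other match.

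**Figure D1:**
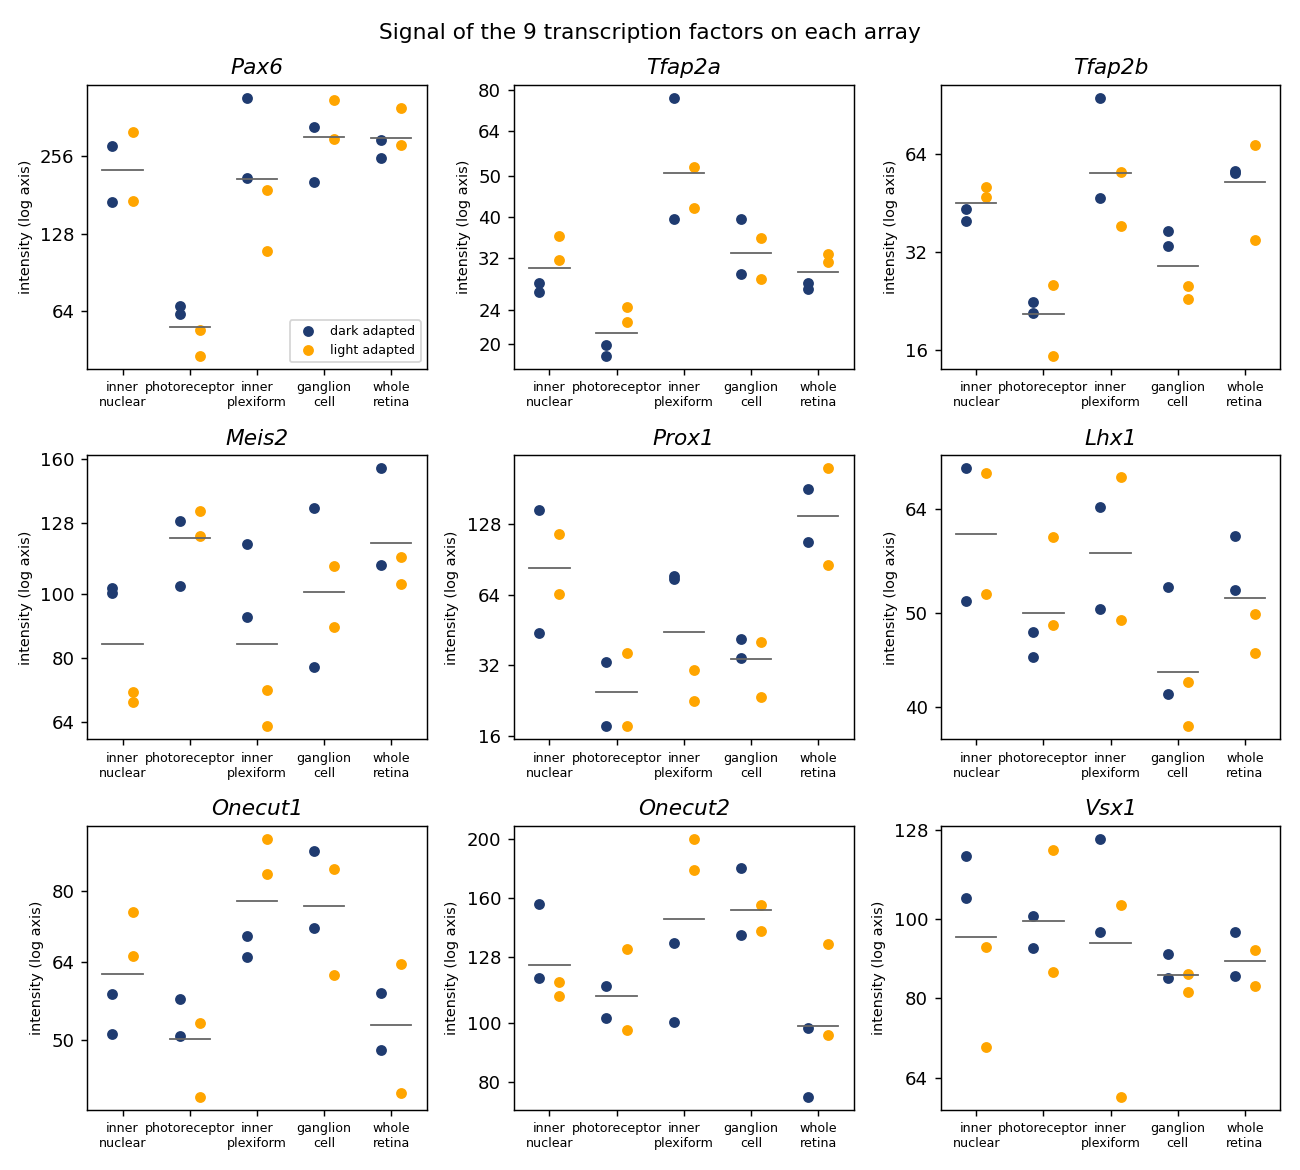
Signal of the 9 transcription factors on every array. Each panel plots the deposited intensity on a log axis for 1 gene, with 5 tissues along the axis, dark-adapted arrays in blue to the left of light-adapted arrays in orange, and a grey line at the mean of the 4 log2 values. All 4 photoreceptor layer arrays of Pax6 lie between 43.0 and 66.9, below every other array, and the 4 inner plexiform layer arrays of Tfap2a lie above all others.

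Pax6 had the clearest pattern of the 9: it was low in the photoreceptor layer and present in every other tissue. Photoreceptor layer arrays gave 62.5 and 66.9 in dark-adapted and 54.2 and 43.0 in light-adapted samples. It measured 169.4 and 280.2 in dark-adapted and 171.0 and 318.3 in light-adapted inner nuclear layer samples. In the inner plexiform layer the dark-adapted values were 211.3 and 430.4 and the light-adapted ones 109.2 and 189.0. All 4 photoreceptor layer arrays lay below all 16 others, and the inner plexiform layer spread over the widest range.

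Against the other 3 layers Pax6 was 4.34-fold lower in the photoreceptor layer, a log2 difference of -2.12 ± 0.22 (adjusted p = 4.82e-06). This held in each of the 20 fits that left out 1 array and in 16 other settings, with differences between -2.30 and -1.85. It was called within dark-adapted samples (-1.99, adjusted p = 0.00083) and within light-adapted samples (-2.24, adjusted p = 0.000328). The other tissues had mean log2 levels of 8.25 ± 0.44 in the ganglion cell layer, 8.24 ± 0.27 in the whole retina, 7.82 ± 0.47 in the inner nuclear layer and 7.70 ± 0.81 in the inner plexiform layer (SD, n = 4 each). No neighbours in that order were called, the smallest adjusted p being 0.223, until the step to the photoreceptor layer (1.90 ± 0.27, adjusted p = 0.000173).

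In the ganglion cell layer Pax6 measured 203.9 and 332.6 in dark-adapted and 298.9 and 424.0 in light-adapted samples, and in the whole retina between 251.7 and 393.2. The ganglion cell layer was 1.14 ± 0.22 above the other 3 layers (adjusted p = 0.0104), but its arrays overlapped with the inner nuclear layer and with the inner plexiform layer. This call rested on few arrays. It was lost without the dark-adapted replicate 2 (0.97, adjusted p = 0.136), without the light-adapted replicate 2 of this layer (1.02, adjusted p = 0.0722) and without the arrays with Y-linked signal (0.87, adjusted p = 0.369). Within light-adapted samples, where both ganglion cell layer arrays have that signal, the difference was 1.60 (adjusted p = 0.0305), and within dark-adapted samples 0.69 (adjusted p = 0.578). The part of the Y-linked signal in the result was not tested further.

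The AP-2 genes Tfap2a and Tfap2b had their highest mean levels in the inner plexiform layer, and only Tfap2a was called lower in the inner nuclear layer than there. Tfap2a measured 39.6 and 76.6 in dark-adapted and 42.0 and 52.5 in light-adapted inner plexiform layer samples, against 26.5 and 27.9 in dark-adapted and 31.6 and 36.1 in light-adapted inner nuclear layer samples. Ganglion cell layer values were 29.2 to 39.4, photoreceptor layer values 18.7 to 24.4 and whole retina values 27.0 to 32.7. Every inner plexiform layer array lay above every array of the other tissues, and every photoreceptor layer array lay below them all. Tfap2a was a weak signal, over the filter intensity of 32 on 8 of the 20 arrays, 4 of them from the inner plexiform layer.

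Tfap2a was 1.84-fold higher in the inner plexiform layer than in the other 3 layers (log2 difference 0.88 ± 0.16, adjusted p = 0.0027). It was lower in the inner nuclear than in the inner plexiform layer, with a difference of -0.75 ± 0.20 (adjusted p = 0.0417). In the photoreceptor layer it was lower than in the others by a difference of -0.80 ± 0.16 (adjusted p = 0.0033). The remaining neighbours in its order, inner plexiform over ganglion cell layer (0.63 ± 0.20, adjusted p = 0.0933), ganglion cell over inner nuclear layer, inner nuclear layer over whole retina and whole retina over photoreceptor layer, were not called.

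Tfap2b measured 46.9 and 95.2 in dark-adapted and 56.5 and 38.6 in light-adapted inner plexiform layer samples. In the inner nuclear layer it measured 43.5 and 39.8 in dark-adapted and 47.3 and 50.9 in light-adapted samples, the narrowest spread of this gene in any tissue (mean log2 level 5.50 ± 0.15, SD, n = 4). The photoreceptor layer gave 15.4 to 25.4, the ganglion cell layer 23.0 to 37.2 and the whole retina 34.8 to 68.4. Inner nuclear and inner plexiform layer arrays overlapped with each other, and all 8 lay above every photoreceptor layer and ganglion cell layer array.

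Tfap2b was higher in the inner plexiform layer than in the other layers by 0.89 ± 0.20 (adjusted p = 0.00831) and lower in the photoreceptor layer, with a difference of -1.02 ± 0.20 (adjusted p = 0.00252). It was also higher in the inner nuclear than in the photoreceptor layer (1.13 ± 0.25, adjusted p = 0.01) and higher in the inner plexiform than in the ganglion cell layer (0.94 ± 0.25, adjusted p = 0.0464). Between the inner nuclear and inner plexiform layers Tfap2b was not called. In light-adapted samples its mean log2 level was 5.62 in the inner nuclear and 5.55 in the inner plexiform layer. The inner plexiform layer lay only 0.09 ± 0.25 above the whole retina (adjusted p = 0.773). Single arrays mattered for the inner plexiform layer. Without its dark-adapted replicate 2, the array with 95.2, the Tfap2b difference was 0.64 (adjusted p = 0.0576), and without its light-adapted replicate 1 it was 0.75 (adjusted p = 0.0542). That dark-adapted replicate 2 also had the largest summed amacrine marker signal of its layer, 1366.4 against 882.6 to 943.0 on the other 3 arrays. It was also the highest of the 4 arrays in the summed bipolar (986.9), Müller glia (1919.2) and vascular markers (751.9), and the part of these in the AP-2 result was not tested.

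Leaving out both light-adapted inner plexiform layer arrays raised the estimates for this layer and ended both calls, with differences of 0.99 for Tfap2a (adjusted p = 0.0799) and 1.15 for Tfap2b (adjusted p = 0.0999). Within dark-adapted samples alone the differences were 1.08 for both genes (adjusted p = 0.0838 for Tfap2a and 0.17 for Tfap2b). Within light-adapted samples they were 0.68 for Tfap2a (adjusted p = 0.0559) and 0.71 for Tfap2b (adjusted p = 0.0982). The lower levels in the photoreceptor layer were called within dark-adapted samples for both (Tfap2a -0.94, adjusted p = 0.0244, and Tfap2b -1.09, adjusted p = 0.0355) but not within light-adapted ones (Tfap2a -0.66, adjusted p = 0.121, and Tfap2b -0.94, adjusted p = 0.067).

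Meis2 went the other way from the remaining amacrine factors, with its lowest levels in the inner nuclear and inner plexiform layers. It measured 100.4 and 101.9 in dark-adapted and 68.7 and 70.9 in light-adapted inner nuclear layer samples. Photoreceptor layer values were 129.0 and 102.9 in dark-adapted and 122.3 and 133.5 in light-adapted samples. The inner plexiform layer gave 92.2 and 119.0 in dark-adapted and 71.5 and 63.0 in light-adapted samples, the ganglion cell layer 77.6 to 134.7 and the whole retina 103.6 to 154.9. All 4 photoreceptor layer arrays and all 4 whole retina arrays lay above all 4 inner nuclear layer arrays.

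Meis2 was 0.44 ± 0.15 higher in the photoreceptor layer than in the other 3 layers, which missed the threshold (adjusted p = 0.0537). It passed under quantile normalisation (0.48, adjusted p = 0.0361), with array weights (0.44, adjusted p = 0.0267), with the filter raised to a log2 value of 7 (0.44, adjusted p = 0.0322) and without replicate 2 of the dark-adapted (0.51, adjusted p = 0.0156) or light-adapted ganglion cell layer (0.47, adjusted p = 0.0435) or of the dark-adapted inner plexiform layer (0.47, adjusted p = 0.0402). The photoreceptor layer difference also passed with the replicate number as a block. Of the contrasts of Meis2 between single tissues, 3 were called: photoreceptor over inner plexiform layer (0.53 ± 0.18, adjusted p = 0.0418), inner nuclear layer under whole retina (-0.51 ± 0.18, adjusted p = 0.0379) and inner plexiform layer under whole retina (-0.51 ± 0.18, adjusted p = 0.0259). Its inner nuclear and inner plexiform layer means were the same, 6.39 ± 0.31 and 6.39 ± 0.41 (SD, n = 4 each). Over all alternatives the photoreceptor layer difference ran from 0.17 to 0.72, with adjusted p up to 0.779. No member was called higher in this layer within a single adaptation. For photoreceptor, inner nuclear, inner plexiform and ganglion cell layers, mean log2 levels of Meis2 were 6.85, 6.66, 6.71 and 6.68 in dark-adapted samples. In light-adapted samples they were 7.0, 6.12, 6.07 and 6.63.

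Prox1 had the largest excess in the inner nuclear layer of any member, together with a wide spread between arrays. It measured 44.2 and 146.4 in dark-adapted and 64.8 and 116.0 in light-adapted inner nuclear layer samples. In the photoreceptor layer it measured 33.0 and 17.6 in dark-adapted and 36.3 and 17.6 in light-adapted samples, and in the ganglion cell layer 23.4 to 41.3. Whole retina values, 85.8 to 221.4, were higher still. All 4 inner nuclear layer arrays lay above all photoreceptor layer and ganglion cell layer arrays, and they overlapped with the inner plexiform layer, which measured 75.0 and 77.2 in dark-adapted but 30.5 and 22.5 in light-adapted samples.

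The inner nuclear layer was 2.50-fold above the other 3 layers for Prox1, a log2 difference of 1.32 ± 0.31, and missed the threshold (adjusted p = 0.0729). The difference was called with the replicate number as a block, a pairing that the labels do not give. Dark-adapted replicate 1 of the inner nuclear layer held it down: without that array the difference was 1.75 and was called (adjusted p = 0.0185), whereas without dark-adapted replicate 2 it was 0.89. Within dark-adapted samples it was 0.97 and within light-adapted samples 1.67, neither called (adjusted p = 1 and 0.156). Against the photoreceptor layer alone the inner nuclear layer was higher by 1.76 ± 0.38 (adjusted p = 0.0099). Neighbours in the order of mean levels, whole retina 7.11 ± 0.64, inner nuclear layer 6.38 ± 0.79, inner plexiform layer 5.48 ± 0.91, ganglion cell layer 5.09 ± 0.38 and photoreceptor layer 4.63 ± 0.57 (SD, n = 4 each), did not differ beyond their spread (adjusted p of 0.139 or more).

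Prox1 was also lower in the photoreceptor layer than in the other 3 layers, with a difference of -1.03 ± 0.31 (adjusted p = 0.0385). That call was lost without replicate 2 of the dark-adapted (-0.80, adjusted p = 0.23) or of the light-adapted photoreceptor layer (-0.76, adjusted p = 0.24), the arrays with 17.6. It was also lost without 1 of the ganglion cell layer arrays, dark-adapted replicate 1 (adjusted p = 0.059) or light-adapted replicate 2 (0.0515), or without replicate 2 of the light-adapted inner nuclear layer (0.0638) or replicate 1 of the light-adapted inner plexiform layer (0.0615).

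The spread of Prox1 between inner nuclear layer arrays moved with the summed markers of several cell types, but not with every single marker. The bipolar cell gene Cabp5, a calcium-binding protein, measured 66.1, 88.3, 184.2 and 202.3 from the lowest to the highest Prox1. Trpm1, the ON bipolar transduction channel, did not follow, with 70.3, 126.5, 112.8 and 64.5 on the same arrays. In dark-adapted samples the 9 bipolar markers summed to 754.8 on replicate 1, where Prox1 was 44.2, and to 1545.0 on replicate 2, where it was 146.4. In light-adapted samples they summed to 908.0 on replicate 1, where Prox1 was 64.8, and to 1139.2 on replicate 2, where it was 116.0. By summed intensity the order of the 4 arrays was thus the same for both, and it was the same for 3 more of the 9 marker lists. In that order, from the lowest to the highest Prox1, Müller glia markers summed to 1365.7, 1411.2, 1806.5 and 2024.4, vascular markers to 490.9, 532.2, 570.6 and 601.6, and horizontal cell markers to 521.0, 527.0, 532.4 and 584.3. By mean log2 level the order held for bipolar markers (5.92, 6.15, 6.5 and 7.14) and Müller glia markers (6.47, 6.59, 6.96 and 7.16). It did not hold for vascular markers (5.69, 5.84, 5.85 and 5.82) or horizontal cell markers (6.06, 6.0, 6.15 and 6.44). By tissue the bipolar sums ran 754.8 to 1545.0 in the inner nuclear layer, 438.5 to 492.9 in the photoreceptor layer, 690.0 to 986.9 in the inner plexiform layer, 439.6 to 519.0 in the ganglion cell layer and 874.2 to 1167.1 in the whole retina. The part of these markers in the Prox1 differences was not tested.

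**Figure D2:**
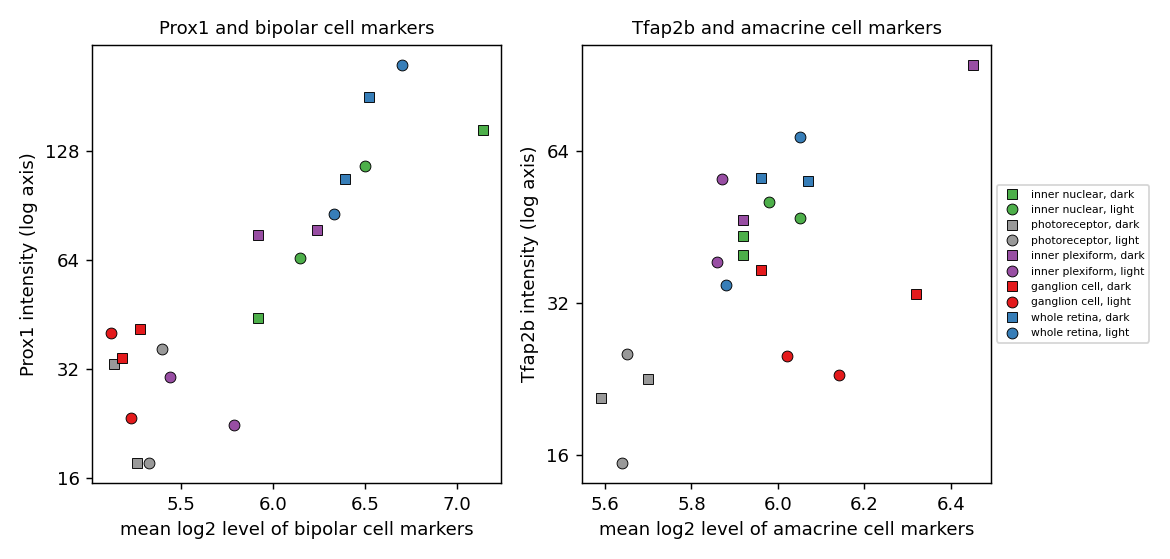
Prox1 and Tfap2b against marker levels on the 20 arrays. The left panel plots Prox1 intensity (log axis) against the mean log2 level of the 9 bipolar cell markers, the right panel Tfap2b intensity (log axis) against that of the 11 amacrine cell markers, with colours for tissues, squares for dark-adapted and circles for light-adapted arrays. On the left panel the whole retina arrays and 3 of the 4 inner nuclear layer arrays lie toward the upper right, and the 95.2 of Tfap2b sits at the highest amacrine marker level on the right panel.

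Lhx1, which directs horizontal cells to their place in the layer, had its highest mean in the inner nuclear layer without a called difference. It measured 70.4 and 51.4 in dark-adapted and 69.7 and 52.3 in light-adapted inner nuclear layer samples, and 38.2 to 69.0 over the other 3 layers. Its arrays overlapped between every pair of tissues. The difference between the inner nuclear layer and the other layers was 0.27 ± 0.14 (adjusted p = 0.553), and that of the ganglion cell layer, its lowest tissue, was -0.36 ± 0.14 (adjusted p = 0.31).

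Onecut1 and Onecut2, a pair of related factors that promote horizontal cell fate, were highest in the inner plexiform and ganglion cell layers. Onecut1 measured 57.8 and 50.9 in dark-adapted and 74.9 and 65.2 in light-adapted inner nuclear layer samples, 65.1 to 94.4 in the inner plexiform layer, 61.4 to 90.9 in the ganglion cell layer, 41.8 to 56.9 in the photoreceptor layer and 42.3 to 63.6 in the whole retina. All of its inner plexiform and ganglion cell layer arrays lay above all photoreceptor layer arrays, while the inner nuclear layer overlapped with every tissue. In the photoreceptor layer it was lower than in the other 3 layers, by a difference of -0.51 ± 0.14 (adjusted p = 0.0225). That call was lost without replicate 1 (adjusted p = 0.109) or replicate 2 (0.0643) of the dark-adapted photoreceptor layer, without replicate 2 of the light-adapted one (0.147), and when both inner plexiform layer arrays of light-adapted mice were dropped (-0.44, adjusted p = 0.0713). Within dark-adapted samples it was -0.31 (adjusted p = 0.498) and within light-adapted samples -0.71 (adjusted p = 0.0493).

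Onecut2 measured 156.6 and 118.6 in dark-adapted and 116.5 and 110.5 in light-adapted inner nuclear layer samples. Inner plexiform layer values were 135.1 and 100.2 in dark-adapted and 200.4 and 178.0 in light-adapted samples, and the ganglion cell layer gave 139.3 to 179.5, the photoreceptor layer 97.3 to 132.2 and the whole retina 75.6 to 134.8. All ganglion cell layer arrays lay above all photoreceptor layer and whole retina arrays. No layer was called against the other 3 for Onecut2, the photoreceptor layer coming closest at -0.35 ± 0.14 (adjusted p = 0.112). Within light-adapted samples alone the inner plexiform layer was 0.61 higher (adjusted p = 0.0469), against -0.19 within dark-adapted samples (adjusted p = 0.795).

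Vsx1 had the narrowest range of tissue means. It measured 106.0 and 119.2 in dark-adapted and 92.3 and 69.8 in light-adapted inner nuclear layer samples, and its other arrays lay between 60.7 and 125.0. The tissues overlapped with each other in every pair, and the mean log2 level ran only from 6.42 ± 0.06 in the ganglion cell layer to 6.63 ± 0.21 in the photoreceptor layer (SD, n = 4 each). The inner nuclear layer differed from the other layers by 0.04 ± 0.15 (adjusted p = 0.962), and no difference of Vsx1 was called in any comparison.

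**Figure D3:**
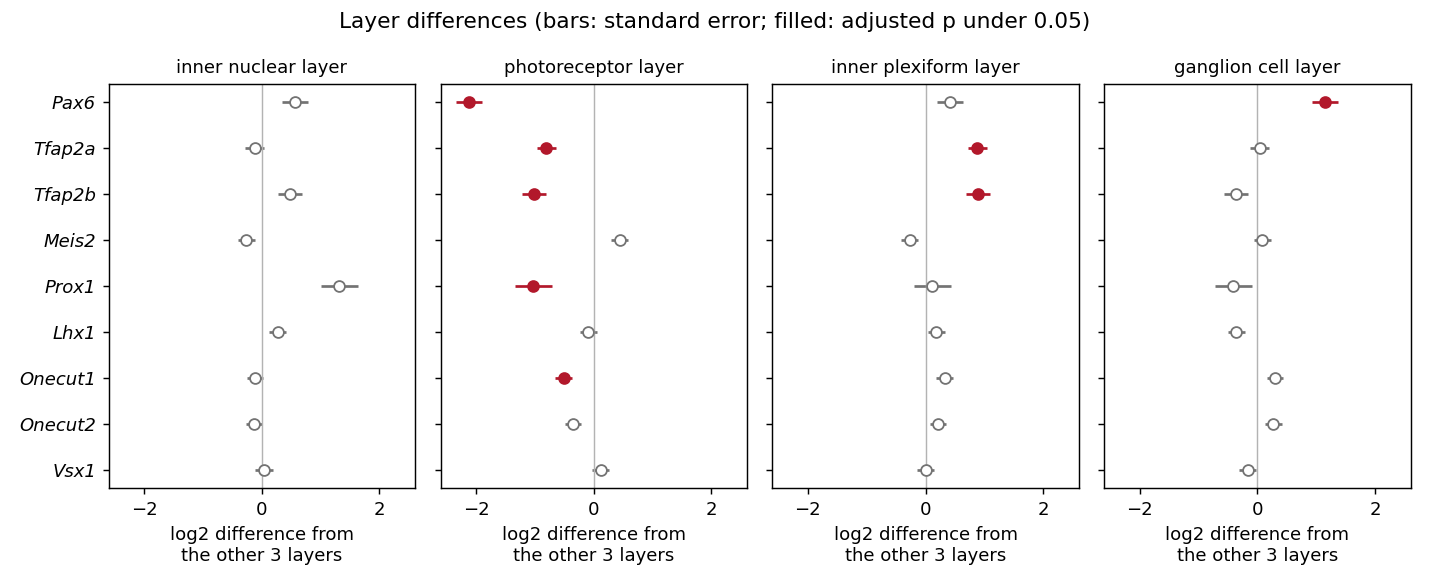
Difference of each dissected layer from the mean of the other 3 layers for the 9 genes. Points give the log2 difference of the fit and bars its standard error, and filled red points have an adjusted p under 0.05. The photoreceptor layer panel holds 5 filled points, all to the left of 0, and the inner nuclear layer panel holds none.

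Counted over the 9 genes, 0 were called in the inner nuclear layer against the other 3 layers, where limma called 0.611% of all genes. At an unadjusted p under 0.05 there were 3: Prox1, Pax6 (0.56 ± 0.22) and Tfap2b (0.48 ± 0.20), all higher, and 1546 of all 15057 genes reached that level. With the replicate number as a block Prox1 was called in this layer. Against the other layers, 5 of 9 were called in the photoreceptor layer, all lower (Pax6, Tfap2b, Tfap2a, Onecut1 and Prox1), against 12.9% of all genes. The median difference there was -0.51 over the 9 members and -0.06 over all genes. In the inner plexiform layer 2 of 9 were called, Tfap2a and Tfap2b, both higher, against 13.6% of all genes, with medians of 0.21 over the members and 0.01 over all genes. In the ganglion cell layer 1 of 9 was called, Pax6, against 1.87%.

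Within dark-adapted samples the shares of all genes called were 0.0266% for the inner nuclear layer, 4.64% for the photoreceptor layer, 0.0598% for the inner plexiform layer and 0.438% for the ganglion cell layer. Within light-adapted samples they were 0.246%, 4.7%, 15.7% and 0.372% in the same order. The members called in those 4 layers were 0, 3, 0 and 0 within dark-adapted samples. Within light-adapted samples they were 0, 2, 1 and 1.

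Pair by pair, the inner nuclear layer had 3 members higher than the photoreceptor layer (Pax6 2.01 ± 0.27, Prox1 and Tfap2b), where 5.33% of all genes were called. It had 1 lower than the inner plexiform layer (Tfap2a, 4.85% of all genes), and 0 called against the ganglion cell layer (0.458% of all genes). In that last pair 3 members, and 1100 of all 15057 genes, had an unadjusted p under 0.05. The photoreceptor layer had 4 lower than the inner plexiform layer (Pax6, Tfap2a, Tfap2b and Onecut1) and Meis2 higher, where 21.4% of all genes were called. Against the ganglion cell layer it had 2 lower, Pax6 (-2.45 ± 0.27) and Onecut1 (-0.61 ± 0.17), where 7.66% were called. Between the inner plexiform and ganglion cell layers Tfap2b was the 1 member called, and 3.1% of all genes were.

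The whole retina differed from the mean of the 4 dissected layers over much of the array, with 48.5% of all genes called and a median difference of -0.18. Against that background Prox1 was 3.29-fold higher in the whole retina (1.72 ± 0.30, adjusted p = 0.000367), Pax6 was higher by 0.84 ± 0.21 (adjusted p = 0.0048) and Tfap2b by 0.58 ± 0.19 (adjusted p = 0.0224), while Onecut2 was lower, with a difference of -0.43 ± 0.14 (adjusted p = 0.0168). The Tfap2b call was lost without whole retina replicate 1 or 2 of the dark-adapted samples (adjusted p = 0.0677 and 0.0757) or replicate 2 of the light-adapted ones (0.33, adjusted p = 0.239). The Onecut2 call was lost without dark-adapted replicate 2 (adjusted p = 0.117), light-adapted replicate 2 (0.15) or the pair of inner plexiform layer arrays from light-adapted mice (0.0587). Against the whole retina alone, 34.6% of all genes were called for the inner nuclear layer, 10.4% for the photoreceptor layer, 49.7% for the inner plexiform layer and 34.3% for the ganglion cell layer. The members called in those pairs were 1, 3, 5 and 4. In the ganglion cell layer against the whole retina, for example, Onecut1 (0.54 ± 0.17) and Onecut2 (0.63 ± 0.17) were higher, and Prox1 (-2.02 ± 0.38) and Tfap2b (-0.85 ± 0.25) lower.

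Adaptation moved no member past the threshold. Averaged over the 5 tissues, 0 of 9 were called between dark-adapted and light-adapted samples, where limma called 0.0133% of all genes, and 1 member, Meis2 (0.27 ± 0.11), had an unadjusted p under 0.05. Within single tissues 0 of 9 were called in the inner nuclear layer (0% of all genes, with 473 of 15057 at an unadjusted p under 0.05, and 1 called by limma with array weights), in the photoreceptor layer (0.0465%), in the inner plexiform layer (1.83%), in the ganglion cell layer (0.00664%) and in intact retina (0.0266%). At an unadjusted p under 0.05 there were 1 member in the inner nuclear layer (Meis2), 4 in the inner plexiform layer and 0 in each of the other tissues. Of all 15057 genes, 2815 reached that level in the inner plexiform layer, and 920 did when averaged over the 5 tissues. The moderated F test of whether the dark effect differs between tissues called 0 of 9 members and 0.0266% of all genes, with Pax6 closest (F = 2.63, unadjusted p = 0.0712, adjusted p = 0.888).

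The 4 in the inner plexiform layer were Prox1 (1.54 ± 0.54, adjusted p = 0.144), Pax6 (1.07 ± 0.38, adjusted p = 0.148) and Meis2 (0.64 ± 0.25, adjusted p = 0.183), with positive differences, and Onecut2 (-0.70 ± 0.24, adjusted p = 0.139), with a negative one. For each of them the 2 dark-adapted arrays did not overlap with the 2 light-adapted ones, as the values above show. Since they were taken by their p-value, this adds no support of its own. Onecut1 was separated in this layer too, with both light-adapted arrays on top. The share of all genes that separate so was not counted. Both light-adapted arrays of this layer are those that stand apart from the other groups, and their part in these differences was not tested. On the same arrays the bipolar markers summed to 852.5 and 986.9 in dark-adapted samples, against 690.0 and 802.8 in light-adapted samples, and 0 of the 9 tested were called between them. Müller glia markers summed to 1533.1 and 1919.2 in dark-adapted samples, against 985.9 and 1402.4 in light-adapted samples, with a median difference of 0.78 over the 10 tested. Of these, 2 were called, Rlbp1, a retinoid-binding protein (1.40 ± 0.23, adjusted p = 0.0107), and Kcnj10, a potassium channel (1.11 ± 0.26, adjusted p = 0.0423), as was the ganglion cell marker Thy1 (1.52 ± 0.22, adjusted p = 0.00535). Thy1 measured 7.1 and 7.2 on the light-adapted arrays, both set to the floor of 8, so its difference and spread depend on the floor.

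In the inner nuclear layer Meis2 measured 100.4 and 101.9 in dark-adapted samples, against 68.7 and 70.9 in light-adapted samples (0.54 ± 0.25, adjusted p = 1). Vsx1 and Onecut2 also had both dark-adapted arrays above both light-adapted ones there. Onecut1, Tfap2a and Tfap2b had both light-adapted arrays on top, with differences of -0.37 ± 0.24, -0.31 ± 0.28 and -0.24 ± 0.35. With 2 arrays a side these orders carry no call, and how many of all genes separate in this way was not counted.

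**Figure D4:**
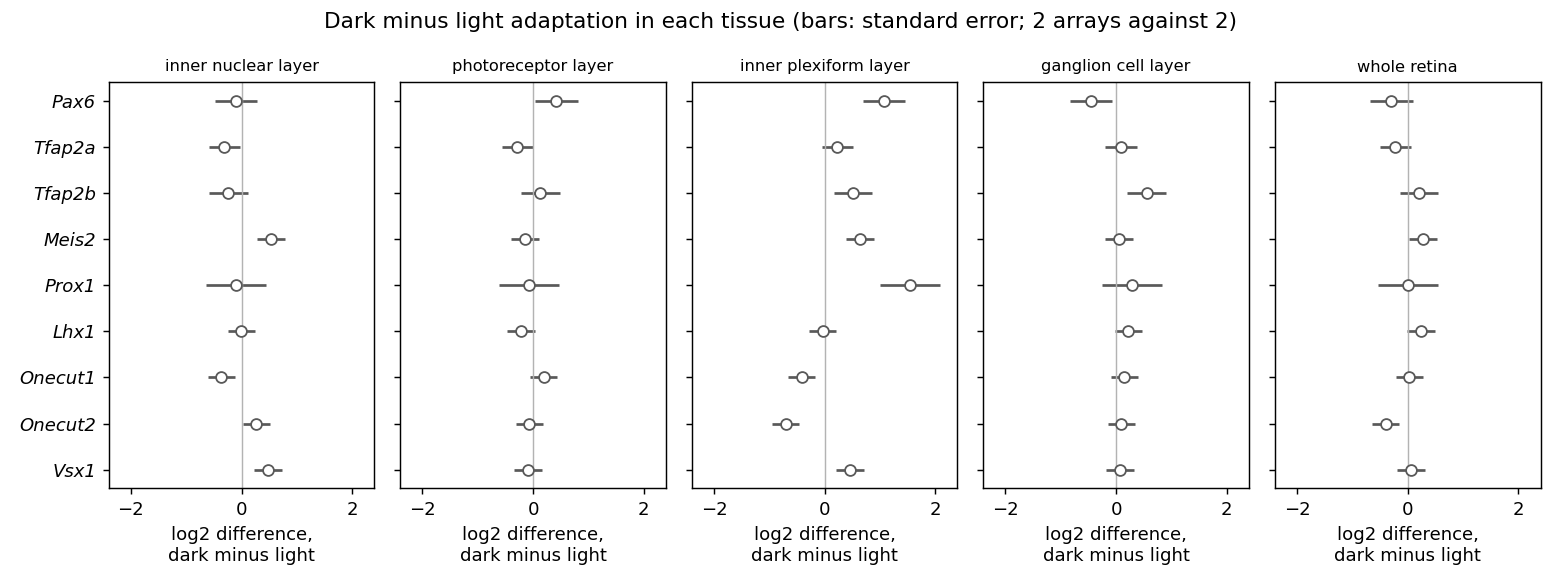
Dark minus light adaptation for the 9 genes in each of the 5 tissues. Points give the log2 difference of 2 dark-adapted against 2 light-adapted arrays and bars the standard error of the fit, and open points mean that none was called. The inner plexiform layer panel has the widest scatter, from -0.70 for Onecut2 to 1.54 for Prox1.

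Other transcription factors of the same cell classes were counted on lists. Of 11 further bipolar cell factors tested, 1 was higher in the inner nuclear layer than in the other 3 layers: Neurod4, a proneural factor (1.95 ± 0.36, adjusted p = 0.0166). It measured 25.0 and 177.9 in dark-adapted and 44.2 and 49.3 in light-adapted inner nuclear layer samples, so that its highest array was the one with the highest Prox1. Of the 11, 3 were lower in the photoreceptor layer, Isl1, a factor of ON bipolar, starburst amacrine and ganglion cells (-1.09 ± 0.20, adjusted p = 0.00123), Neurod4 (-1.42 ± 0.36) and Irx5 (-0.53 ± 0.17), and 1 was higher, Otx2, which photoreceptors use as well (0.93 ± 0.16, adjusted p = 0.00074).

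Of 13 further amacrine cell factors 0 were called in the inner nuclear layer and 6 were lower in the photoreceptor layer, with Lmo4 at -0.66 ± 0.13, Ebf3 at -0.77 ± 0.16 and Ebf1 at -0.83 ± 0.21 beside Isl1, which stands on both lists. Their median difference was -0.47 in the photoreceptor layer, near the -0.51 of the 9 members. Factors of other cell classes were low there too. The median was -0.29 for ganglion cell factors, with 2 of 10 lower. For Müller glia factors it was -0.32, with 3 of 11 lower and 1 higher. Of the cell type markers, 9 of 10 ganglion cell and 8 of 10 Müller glia genes were lower in this layer, where 12.9% of all genes were called. Barhl2, a factor of some amacrine cells, was the 1 of 13 called in the inner plexiform layer, where it was higher (0.69 ± 0.18, adjusted p = 0.0212). Over all genes 13.6% were called there. Higher levels in this layer were not particular to amacrine factors. Of the 11 further bipolar cell factors 2 were higher there, Irx5 (0.78 ± 0.17) and Lhx4 (0.38 ± 0.11). Of 10 ganglion cell factors 1 was higher and 1 lower. Of 5 further horizontal cell factors, Ptf1a, which amacrine and horizontal precursors share, was higher in the inner plexiform layer (1.40 ± 0.24, adjusted p = 0.00173). Esrrb was higher in the photoreceptor layer (2.83 ± 0.18, adjusted p = 1.63e-08) and stands on the photoreceptor list too. It was the 1 of the 5 called in the inner nuclear layer, where it was lower by a difference of -0.86 ± 0.18 (adjusted p = 0.0354).

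For contrast, 10 of 12 photoreceptor factors were higher in the photoreceptor layer, with a median difference of 1.22, among them, beside Esrrb, Crx (2.37 ± 0.21), Neurod1 (2.47 ± 0.27) and Mef2c (1.59 ± 0.18). Of 10 ganglion cell factors 2 were higher in the ganglion cell layer, Satb1 (0.80 ± 0.14) and Pou4f1 (1.20 ± 0.23), where 1.87% of all genes were called. Pou4f1 passed the filter only with the arrays of this layer. Of 11 Müller glia factors 0 were called in the inner nuclear layer. In the inner plexiform layer 4 of these were higher, with Hes1 at 0.71 ± 0.16, Six3 at 0.50 ± 0.11, Nfix at 0.65 ± 0.17 and Hey1 at 0.48 ± 0.13. One gene on these lists of factors was called for adaptation in a layer: Isl1 measured 147.7 and 171.4 in dark-adapted against 41.8 and 60.7 in light-adapted inner plexiform layer samples (1.66 ± 0.34, adjusted p = 0.0266). Those light-adapted arrays are again the ones that stand apart.

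**Figure D5:**
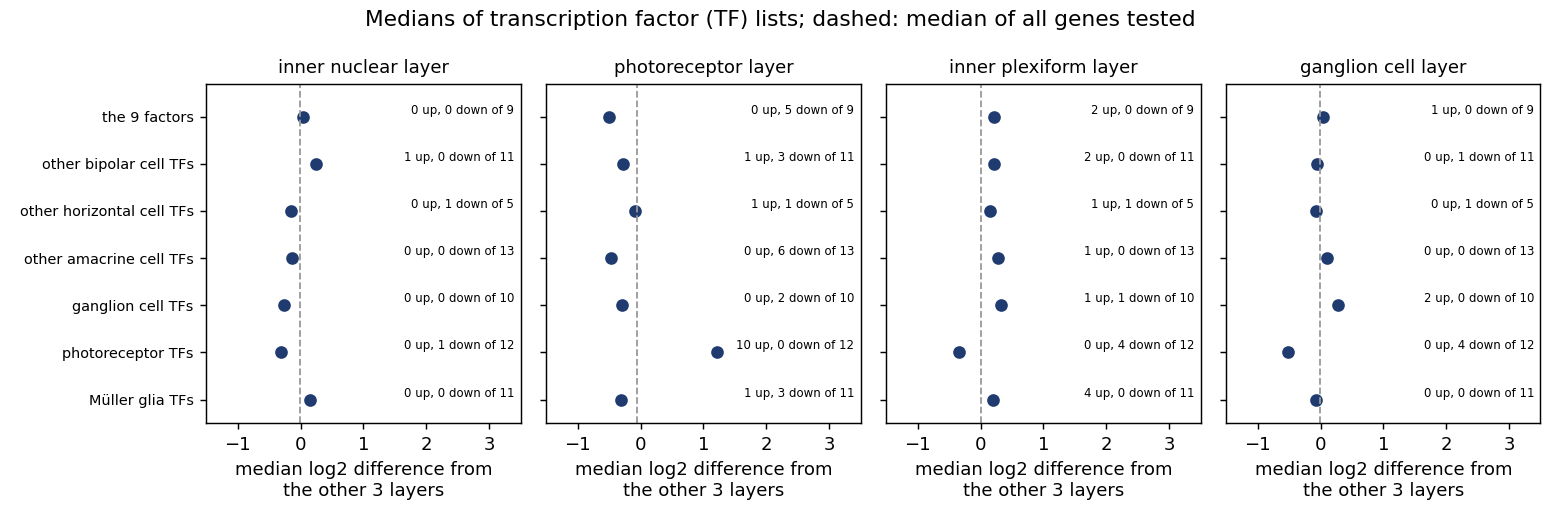
Median log2 difference of each dissected layer from the other 3 layers for the 9 members and for lists of other transcription factors (TFs). Points are medians over the genes tested, text gives how many were called higher (up) and lower (down), and the dashed line is the median of all genes tested. In the photoreceptor layer the members lie at -0.51 and the photoreceptor factors at 1.22.

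Genes whose log2 level ran most like a member's over the 20 arrays were found by Pearson correlation, as a description, since the points share layers and arrays. For Pax6 these were Gnao1 (0.968), which encodes a G protein alpha subunit of neurons, App (0.938) and Nap1l5 (0.925). Prox1 ran most like Nrxn3 (0.967), a presynaptic neurexin, B3galt2 (0.94) and Zfp804b (0.938). For Tfap2a the closest was Gad1 (0.902), the enzyme that makes GABA, followed by Zyx and Mxra7, and for Tfap2b they were Nfix (0.833), the glycine transporter gene Slc6a5 (0.816) and Trim9 (0.81). Onecut1 ran most like Mcph1 (0.858), Npw and Zfr2, Onecut2 like Gdap1l1 (0.888), Pdlim7 and Slc22a6, and Meis2 like Ankrd40 (0.849), Bag6 and Erlin2. Lhx1 ran most like Gm14488 (0.755), Fem1al and Slc1a4, and Vsx1 like Dkk4 (0.723), BC024978 and Rnf6. Between members the highest values were 0.70 for Onecut1 with Onecut2 and for Prox1 with Tfap2b, and 0.65 for Tfap2a with Tfap2b.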

How the data were processed

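RNA of 20 retina samples was labelled in 2 cycles and hybridised to Affymetrix gene arrays, per the labels' protocols. The authors deposited intensities of 35557 probe sets on each array; the submitters' processing notes name GCRMA, and the linear scale was read from the values. Here, intensities under 8 were set to 8 (11.3% to 14.1% of an array) and log2 was taken. Of the probe sets, 21789 had 1 gene symbol in the platform annotation of 2016, 1621 several, and 12147 were not listed there. Genes needed a log2 value over 5 on at least 2 of 20 arrays, and the probe set with the highest mean stood for a gene, leaving 15057 genes. The number of arrays limits the precision.

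All tests came from 1 limma fit (limma 3.58.1, R 4.3.3) with 10 group means, 10 residual degrees of freedom and an intensity trend, two-sided, with Benjamini-Hochberg adjustment within a comparison and a threshold of 0.05. The code was tested on simulated data. Contrasts set 1 layer against the average of the other 3, with adaptations averaged. Members and gene lists were chosen with earlier results of these data known, and pairs with the whole retina and comparisons within 1 adaptation were added after seeing the data. All members are named, with the 3 genes most like each; lists of other factors are given as counts with up to 4 called genes by smallest p. Alternatives were other normalisations, filters, floors and offsets, array weights, a replicate block, and leaving out arrays.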

Additional observations from a re-analysis of the deposited data

How the results depend on the processing

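No difference of a member reversed its call under any alternative. The 0 called members in the inner nuclear layer became 1 with the replicate number as a block, Prox1 (adjusted p = 0.0288), and ranged over 0 to 1 when each array was left out in turn. The 5 in the photoreceptor layer, all lower, became 3 with a filter at a log2 value of 7. That filter drops the weaker members Tfap2a, Tfap2b, Onecut1, Lhx1 and Vsx1 from the test, and the 3 include Meis2, which was higher in this layer. The 5 became 3 within dark-adapted and 2 within light-adapted groups, and ranged over 3 to 6 with 1 array left out. The 2 in the inner plexiform layer, both dropped by that filter, became 0 with it. They became 0 when the light-adapted arrays of this layer were dropped, 0 within dark-adapted and 1 within light-adapted groups, and ranged over 1 to 2. The 1 in the ganglion cell layer became 0 without a filter (Pax6, adjusted p = 0.0511), 0 when arrays with Y-linked signal were dropped and 0 within dark-adapted groups, and ranged over 0 to 1. The 4 in the whole retina comparison ranged over 2 to 5, and the dark and light comparisons, averaged and in each tissue, stayed at 0 in every alternative run except 1: with the replicate block, 1 member, Pax6 (1.07, adjusted p = 0.0229), was called in the inner plexiform layer, where the block called 781 rather than 276 of all genes. Those 276 became 3 with array weights, 4 with that layer's arrays alone, 82 without the Y-linked arrays and 17 without that layer's dark-adapted replicate 2. Where no value is given, the cause was not tested. Comparisons within 1 adaptation, and alternatives for dark against light in the tissues other than the inner nuclear layer, were chosen after seeing the data. The labels do not say that a replicate number marks a shared animal or batch, and the numbers were not taken as pairs because not every correlation passed 0.1: over 45 pairs of groups the deviations of same-numbered arrays correlated at 0.01 to 0.48, with a median of 0.13 and 32 of them over 0.1. All 45 were positive, so that arrays ran closer to their own number in every pair of groups, a hint from the data and not from the design. With the replicate block, 239 rather than 92 of all genes were called in the inner nuclear layer, 2673 rather than 1949 in the photoreceptor layer, 2968 rather than 2045 in the inner plexiform layer and 510 rather than 282 in the ganglion cell layer, and the members called in the photoreceptor layer were 7, with Meis2 (0.44, adjusted p = 0.0269) and Onecut2 (-0.35, adjusted p = 0.0467) added. Without the Y-linked arrays 4 of all genes were called in the inner nuclear layer and 48 in the ganglion cell layer, and dropping the inner plexiform layer arrays of light-adapted mice left 35 called in that layer. Signals near the floor, such as those of Tfap2a, limit the size of difference that can be read.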
